A study of Homo sapiens with 6 samples.

Results

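Organic anion and cation transporters are membrane proteins that carry bile salts, hormones, carnitine, urate and many drugs into or out of cells. The SLCO, SLC22, SLC47, SLC10 and SLC51 families were taken here by gene symbol alone, and 41 probe sets of the 21448 on the array belong to them, 40 for transporter genes and 1 for the antisense RNA SLCO4A1-AS1. Of all probe sets, 17709 carry 1 gene symbol and 3739 are unnamed here, and transporters that the annotation gives no probe set were left out. The study measured mRNA of KM12SM cells, a liver-metastatic derivative of the human colorectal cancer line KM12, and of SW620 cells, a human colorectal cancer line from a lymph node metastasis. Total RNA was hybridised to 6 Clariom S arrays, 3 of KM12SM and 3 of SW620. Neither line was treated or genetically altered according to the labels, and both were grown in DMEM with serum and antibiotics. The study describes KM12SM as highly metastatic and SW620 as poorly metastatic to liver, and each kind is represented here by 1 line. Replicate arrays are described in the supplementary methods as independent RNA samples, without mention of separate cultures. The p-values therefore reflect only how far these RNA samples scatter, and that scatter may be technical.

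The SLCO family encodes the organic anion transporting polypeptides, which take up bile salts, steroid and thyroid hormone conjugates, prostaglandins and statins without using ATP. The SLC22 family holds the organic cation and organic anion transporters of kidney and liver and the carnitine transporters, and the SLC47 genes encode exporters that exchange cations for protons. SLC10A1 and SLC10A2 encode the sodium-coupled bile acid importers of hepatocytes and ileum, and SLC51A with SLC51B forms the heteromer through which bile acids leave enterocytes. SLCO1B3 and SLCO1B1 are normally hepatocyte genes, and colorectal tumours are known to transcribe SLCO1B3 from an internal start.

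The values are log2 signals, in which a step of 1 is a 2-fold change in signal and each probe set has its own background. Signals therefore serve to compare the lines for 1 probe set and not to rank genes. All signals lay between 2.36 and 13.79, with array medians of 6.71 to 6.78. Pearson r over all probe sets was 0.981 to 0.992 between arrays of a line and 0.919 to 0.926 between arrays of different lines. Replicate 3 of each line correlated less with its own line (0.981 to 0.986) than the other replicates did with each other (0.992 in both lines), and values without it are given where they changed a call. The epithelial genes EPCAM (11.92 ± 0.09 in KM12SM and 11.74 ± 0.08 in SW620, SD, n = 3 each) and KRT8 (12.74 ± 0.04 in KM12SM and 12.42 ± 0.19 in SW620) were bright in both lines. Not every epithelial gene was alike in both. Of 11 colorectal epithelium markers, 7 were called higher in KM12SM and 1 lower, and CDH17 had 10.55 in KM12SM but 5.60 in SW620. None of 10 markers of leukocytes, endothelium and fibroblasts was called, with a median log2 fold change of -0.12, where 25% of all probe sets were called. Lines were compared with limma over all 21448 probe sets (KM12SM minus SW620, two-sided), and a gene was called at an adjusted p under 0.05. Differences carried a median standard error of 0.18 (log2), set by the small number of arrays.

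Few transporters beside SLCO1B3 were called. Of the 41 members, SLCO1B3, SLCO1B1 and SLC10A7 were called higher in KM12SM, SLCO3A1, SLC22A15 and SLC47A1 were called lower, and 35 were not called. The 6 called members are 14.6% of the group, against 25% of all probe sets (12.6% higher and 12.4% lower). Without SLCO1B3, whose difference was known when the group was chosen, 2 of 40 were higher and 3 were lower (12.5%). The median log2 fold change of the members was 0.08, against 0.01 over all probe sets, and 0.07 without SLCO1B3. Their median absolute log2 fold change was 0.19, against 0.26 over all probe sets. The 3 KM12SM arrays did not overlap the 3 SW620 arrays for 10 members, 6 above and 4 below, which is 24.4% against 37.7% of all probe sets. Many of these genes are known for expression in few tissues, and 16 members lay under the 25th percentile of all signals in both lines, a description called dim here since no detection calls were used. Among the 25 other members, 2 were higher and 3 lower (20.0%, against 30.7% of all probe sets that were not dim). Among the 16 dim members 1 was higher (6.25%, against 5.46% of the 4814 dim probe sets).

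**Figure D1:**
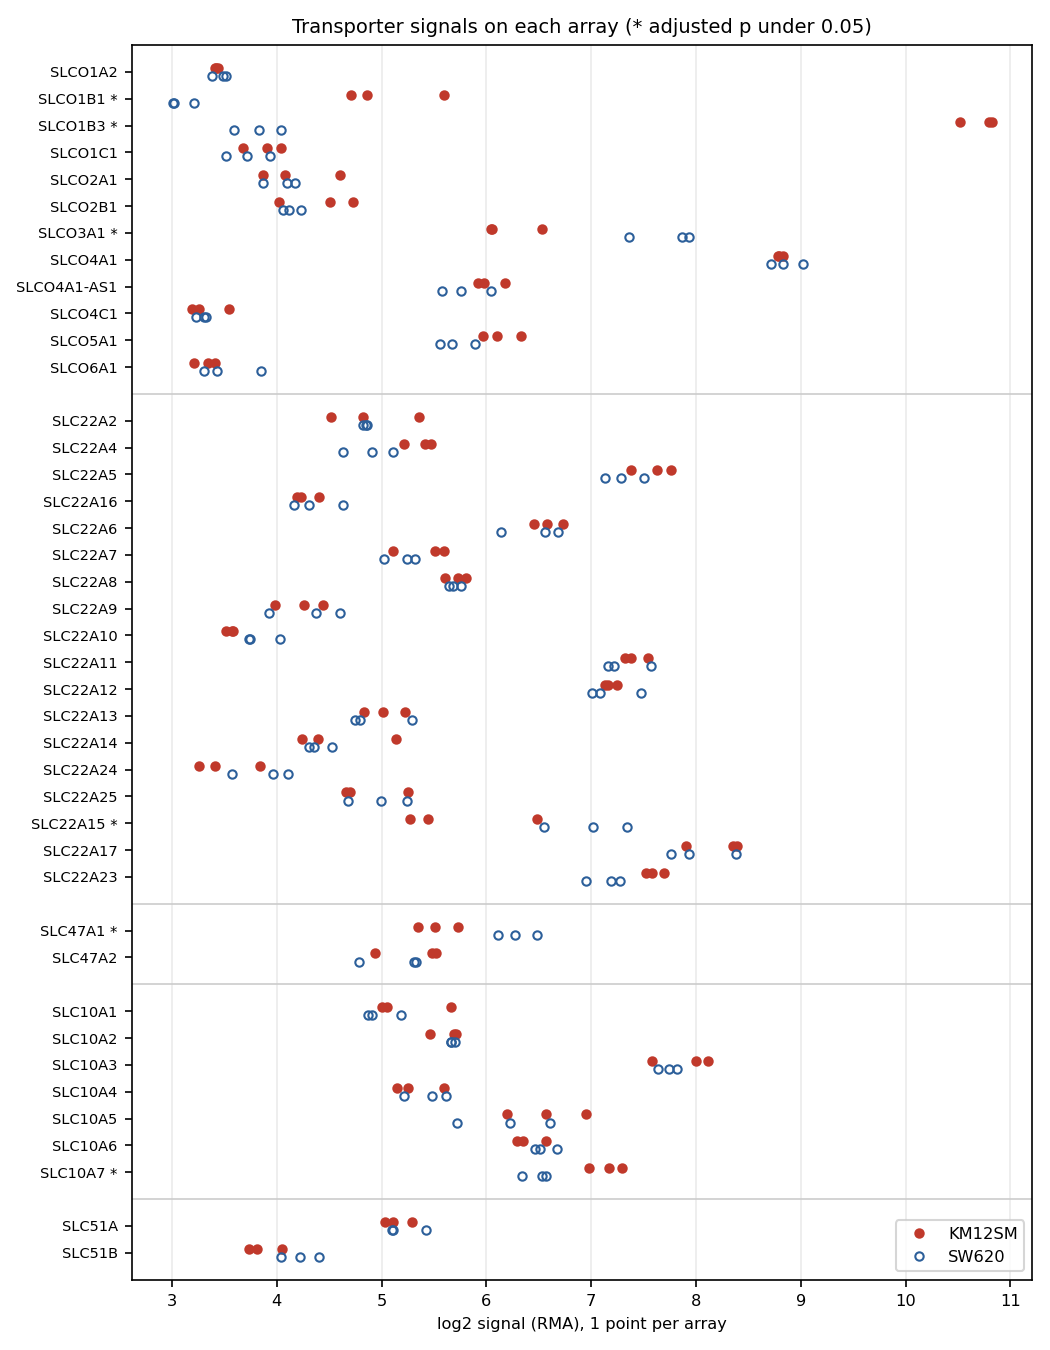
Log2 signal of each transporter on every array, filled points for the 3 KM12SM arrays and open points for the 3 SW620 arrays, with families separated by lines and an asterisk for an adjusted p under 0.05. The KM12SM points of SLCO1B3 sit between 10.52 and 10.82, far from the SW620 points at 3.59 to 4.04, while the points of the 2 lines mix for most other genes.

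SLCO1B3, which encodes the hepatocyte uptake carrier OATP1B3, had log2 signals of 10.80, 10.52 and 10.82 on the KM12SM arrays, against 3.59, 4.04 and 3.83 on the SW620 arrays. Every KM12SM array was above every SW620 array. As a description of brightness and not of amount, the mean signal stood at the 97.2th percentile of all signals in KM12SM and at the 9.3th in SW620. The log2 fold change was 6.89 (95% interval 6.51 to 7.28, standard error 0.18, adjusted p = 6.64e-13 from limma), a 119-fold difference in signal. In bulk RNA, fewer expressing cells and less RNA per cell cannot be told apart. The SW620 end of this ratio is limited by the background of the array. A probe set for the whole gene does not tell the hepatocyte transcript from one that begins at an internal start.

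The probe set annotated as SLCO1B1, the gene of the statin carrier OATP1B1, had log2 signals of 5.59, 4.86 and 4.71 on the KM12SM arrays, against 3.01, 3.21 and 3.02 on the SW620 arrays. All KM12SM arrays were above all SW620 arrays, but the mean signals sat only at the 24.7th percentile in KM12SM and the 1.3th in SW620. The log2 fold change was 1.97 (95% interval 1.52 to 2.43, standard error 0.21, adjusted p = 3.59e-06 from limma), or 3.93-fold. The identity of this probe set is uncertain. A supplementary table of the study gives the same probe set to SLCO1B7, a close relative that lies between both genes and that RefSeq also joins to SLCO1B3 in a readthrough gene, and the sequences of these genes are alike. Whether SLCO1B3 transcripts contribute to its signal was not tested.

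The other relatives in the SLCO1 cluster of chromosome 12 were dim in both lines and not called. SLCO1A2, the gene of a bile salt and steroid conjugate carrier of brain and kidney, had log2 signals of 3.41, 3.42 and 3.44 in KM12SM, against 3.51, 3.49 and 3.38 in SW620. SLCO1C1, the gene of a thyroxine carrier of the blood-brain barrier, had 3.68, 3.91 and 4.04 in KM12SM, against 3.93, 3.71 and 3.51 in SW620. The arrays of the lines overlapped for both genes. The log2 fold changes were -0.04 for SLCO1A2 (95% interval -0.38 to 0.31, adjusted p = 0.905 from limma) and 0.16 for SLCO1C1 (95% interval -0.22 to 0.54, adjusted p = 0.592 from limma). Both intervals describe signals near the bottom of the range and set no limit on a change of the mRNA.

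The cluster spans chr12:20695332-21419634 of GRCh38.p14 by the RefSeq gene spans, with SLCO1C1 first, then SLCO1B3 (20810705 to 20916911), SLCO1B1 (21131194 to 21239796) and SLCO1A2. PDE3A, which encodes a cyclic nucleotide phosphodiesterase and ends 122.1 kb before the start of SLCO1B3, was higher in KM12SM, with log2 signals of 5.87 ± 0.03 in KM12SM and 4.25 ± 0.23 in SW620 (SD, n = 3 each) and a difference of 1.62 on the log2 scale (adjusted p = 3.08e-06 from limma). PLEKHA5, farther out on the same side, was higher by 0.95 (adjusted p = 0.000359 from limma), while CAPZA3 (0.32) and AEBP2 (-0.24) were not called. On the other side, IAPP (-0.01), whose span lies within that of SLCO1A2, and PYROXD1 (-0.02) were not called. RECQL (-0.54, adjusted p = 0.0485 from limma) and GOLT1B (-1.14, adjusted p = 0.000427 from limma) were lower in KM12SM. The called rises of the region thus lay from PLEKHA5 to the probe set annotated as SLCO1B1, and both called falls lay beyond PYROXD1. The uncalled genes AEBP2 and SLCO1C1 stood among the rises, and whether the position of these genes has a part in the differences was not tested.

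**Figure D2:**
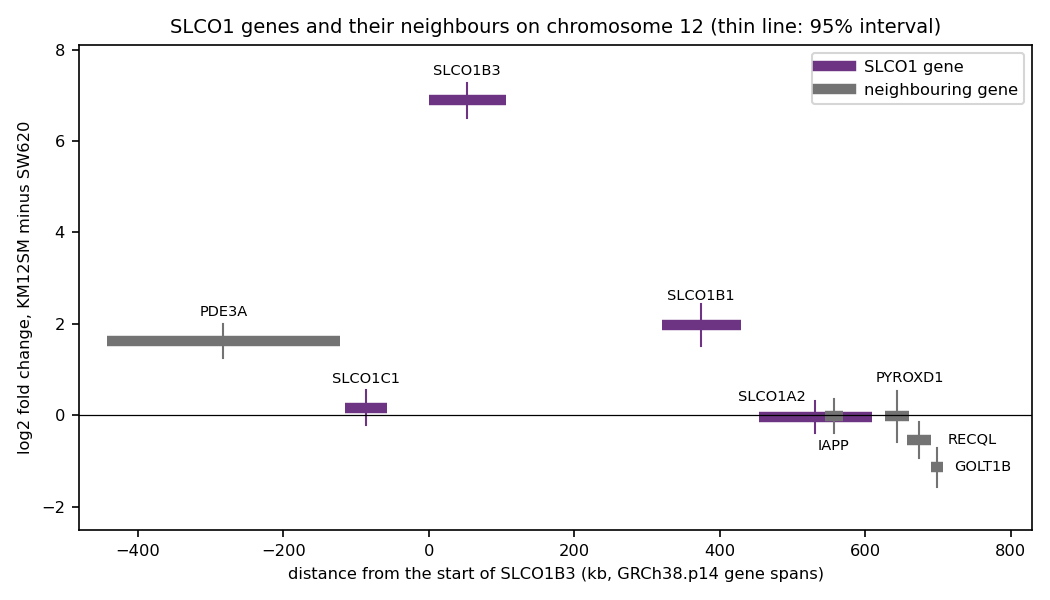
Log2 fold change (KM12SM minus SW620) of the SLCO1 genes and the nearest measured neighbours against distance from the start of SLCO1B3 in kb, with thick lines for gene spans and thin vertical lines for 95% intervals. SLCO1B3 stands at 6.89, SLCO1B1 at 1.97 and PDE3A at 1.62, and SLCO1C1 (0.16) and SLCO1A2 (-0.04) stand at the zero line.

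Printed below are the promoter windows of SLCO1B3 and SLCO1B1, the genes annotated to the 2 probe sets called higher in this cluster. The identity of the SLCO1B1 probe set is uncertain, as stated above. Both windows show how alike these neighbouring genes are at their annotated starts. They also show the motif AGGTCA, which nuclear receptors bind, since SLCO1B3 is a known liver target of the bile acid receptor FXR. The windows are RefSeq sequence of GRCh38.p14, + strand, from 250 bases before to 50 bases after the annotated gene start (chr12:20810455-20810754 for SLCO1B3 and chr12:21130944-21131243 for SLCO1B1). Capitals mark AGGTCA on either strand (TGACCT as printed).
SLCO1B3: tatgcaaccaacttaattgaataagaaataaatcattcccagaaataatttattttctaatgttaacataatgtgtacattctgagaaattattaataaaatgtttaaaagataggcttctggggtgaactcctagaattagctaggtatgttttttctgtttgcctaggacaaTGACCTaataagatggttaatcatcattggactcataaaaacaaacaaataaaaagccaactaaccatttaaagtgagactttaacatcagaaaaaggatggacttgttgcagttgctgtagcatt
SLCO1B1: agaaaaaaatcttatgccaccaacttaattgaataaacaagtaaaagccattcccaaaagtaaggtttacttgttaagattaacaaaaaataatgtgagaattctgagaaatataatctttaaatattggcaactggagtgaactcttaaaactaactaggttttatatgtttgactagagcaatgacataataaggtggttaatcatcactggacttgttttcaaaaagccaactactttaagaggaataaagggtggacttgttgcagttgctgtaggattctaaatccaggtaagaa

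In a local alignment the 2 windows share 216 identical bases over 310 aligned columns (69.7%), 49 of which are gaps, and their longest identical run is 23 bases. TGACCT lies 76 bases before the start in SLCO1B3, and the window of SLCO1B1 holds neither AGGTCA nor TGACCT. Among all 35116 RefSeq windows of this length, 13.8% hold AGGTCA on either strand. Of the 29 members with a window, 6 hold it (SLCO1B3, SLC22A14, SLC22A7, SLC10A1, SLC51B and SLCO3A1), and of these SLCO1B3 was called higher in KM12SM, SLCO3A1 was called lower and the others were not called. A match describes letters and not a bound site, and the mRNA of the gene for FXR was not analysed here. Whether the SLCO1B3 transcript of KM12SM begins at this annotated start or at an internal start was not measured.

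Of the 10 SLCO members outside these 2, 1 was called (10.0%, against 25% of all probe sets), and 6 of the 10 were dim in both lines. SLCO3A1, which encodes a widely expressed carrier of prostaglandins and thyroid hormone, had log2 signals of 6.05, 6.53 and 6.04 in KM12SM, against 7.93, 7.87 and 7.36 in SW620. Every KM12SM array was below every SW620 array. The log2 fold change was -1.51 (95% interval -1.94 to -1.08, standard error 0.20, adjusted p = 3.14e-05 from limma), a 2.85-fold lower signal in KM12SM. Opposite differences of at least 2-fold thus occurred within the family.

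SLCO4A1, the gene of another thyroid hormone and prostaglandin carrier, was bright in both lines. Its log2 signals were 8.78, 8.83 and 8.79 in KM12SM, against 8.83, 9.02 and 8.72 in SW620, and the arrays overlapped (log2 fold change -0.06, 95% interval -0.41 to 0.30, adjusted p = 0.856 from limma). Its antisense RNA SLCO4A1-AS1, which lies within the span of the gene on chromosome 20, had 6.03 ± 0.14 in KM12SM and 5.79 ± 0.23 in SW620 (SD, n = 3 each; log2 fold change 0.23, adjusted p = 0.403 from limma). SLCO5A1, whose product has no settled substrate, had 6.33, 6.10 and 5.97 in KM12SM, against 5.67, 5.56 and 5.89 in SW620, a log2 fold change of 0.43 that missed the threshold although the arrays did not overlap (adjusted p = 0.0926 from limma). It was called without SW620 replicate 3 (0.52, adjusted p = 0.0471 from limma), without replicate 3 of both lines (0.60, adjusted p = 0.0194 from limma) and with array weights (adjusted p = 0.000709 from limma). No other alternative called SLCO5A1. The carriers SLCO2A1 (prostaglandin uptake), SLCO2B1 (sulfated steroids and drugs), SLCO4C1 (kidney) and SLCO6A1 (testis) were dim in both lines, with log2 fold changes of -0.21 to 0.28 and none called.

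**Figure D3:**
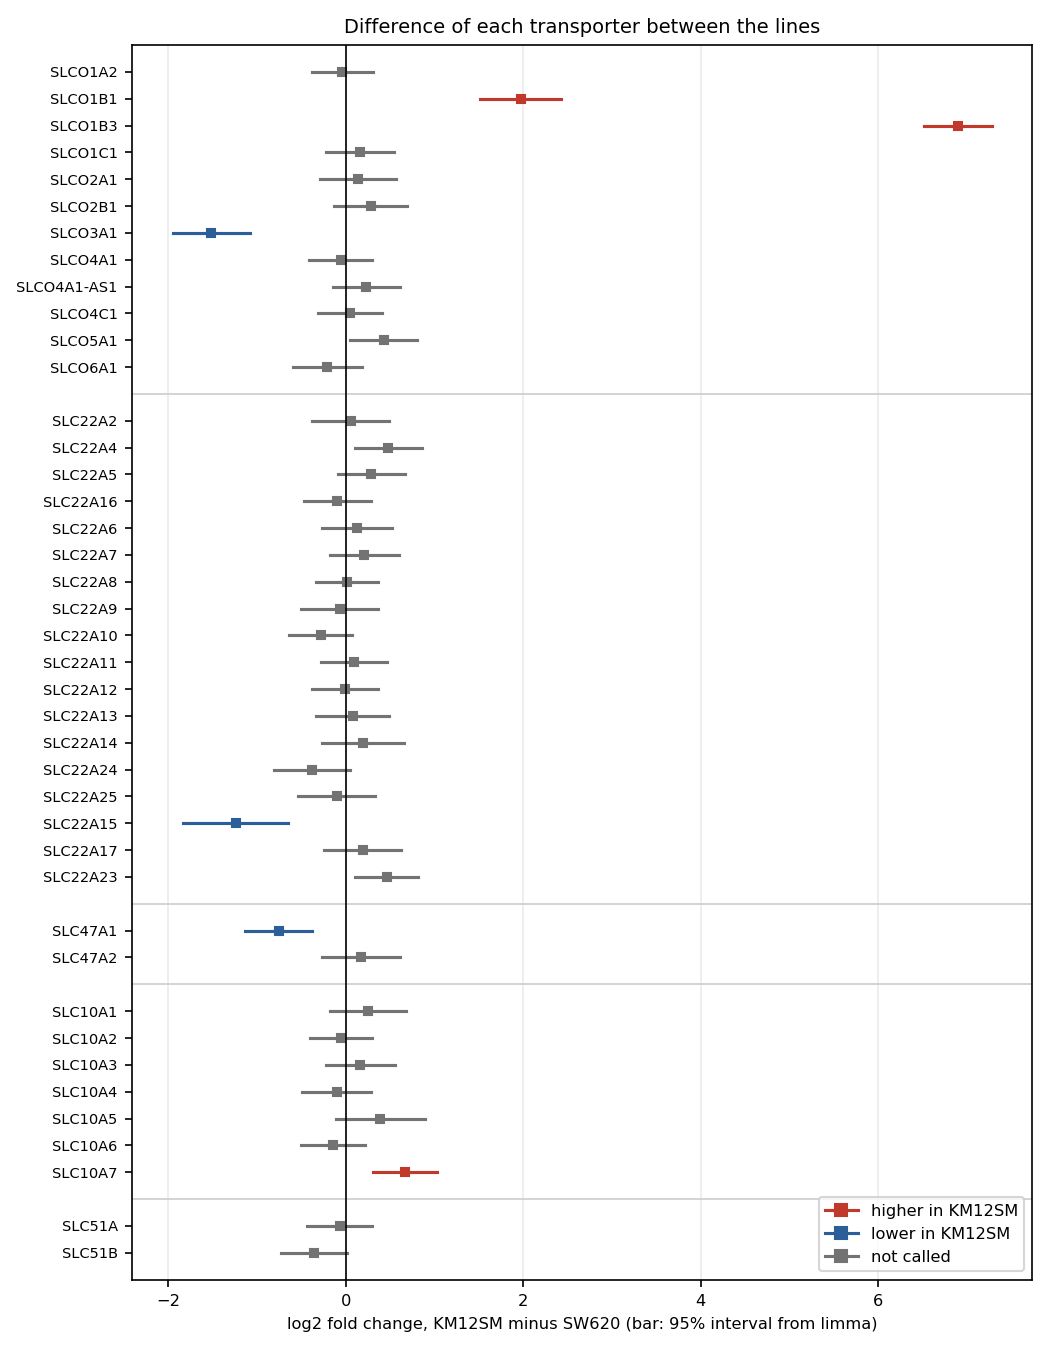
Log2 fold change (KM12SM minus SW620) of each transporter, with bars for the 95% interval from limma, red for members called higher, blue for members called lower and grey for members not called. SLCO1B3 at 6.89 lies apart from all others, and the 35 grey members lie between -0.38 and 0.48.

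In the SLC22 family, 1 of 18 members was called (5.56%, against 25% of all probe sets), and 8 of the 18 were dim in both lines. SLC22A15, which encodes a carrier of zwitterions such as ergothioneine and carnitine, had log2 signals of 5.27, 5.44 and 6.48 in KM12SM, against 7.34, 7.02 and 6.55 in SW620. The KM12SM arrays were below the SW620 arrays, but the replicate 3 arrays of the lines lay next to each other while the other arrays lay far apart. The log2 fold change was -1.24 (95% interval -1.83 to -0.65, standard error 0.28, adjusted p = 0.00323 from limma). Without replicate 3 of both lines, an alternative chosen after seeing the data, it was -1.83 (adjusted p = 9.27e-05 from limma), and with the methods' t-test the call was lost (adjusted p = 0.165).

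None of the 4 cation and carnitine carriers of this family was called, against 25% of all probe sets, and 2 of the 4 were dim in both lines. SLC22A4, the gene of the ergothioneine carrier OCTN1, had log2 signals of 5.47, 5.21 and 5.41 in KM12SM, against 4.91, 4.63 and 5.11 in SW620. These arrays did not overlap, and the log2 fold change of 0.48 came close to the threshold (95% interval 0.10 to 0.86, adjusted p = 0.0634 from limma). It was called with quantile normalization (adjusted p = 0.0408 from limma), with the replicate block (0.0449), without dim probe sets (0.0497), without SW620 replicate 3 (0.027), without replicate 3 of both lines (0.0355) and with array weights (0.00197). SLC22A4 stayed uncalled with median centring (adjusted p = 0.0889 from limma), with trend and robust options (0.0875) and with the methods' t-test (adjusted p = 0.145). Leaving out any other single array also gave no call (adjusted p from limma 0.0713 to 0.24). SLC22A5, the gene of the carnitine carrier OCTN2 beside it on chromosome 5, had 7.63, 7.76 and 7.38 in KM12SM, against 7.28, 7.50 and 7.13 in SW620, with overlap (log2 fold change 0.29, 95% interval -0.09 to 0.67, adjusted p = 0.287 from limma). SLC22A2, the gene of the kidney cation carrier OCT2, had 4.90 ± 0.43 in KM12SM and 4.84 ± 0.02 in SW620 (SD, n = 3 each; log2 fold change 0.06, 95% interval -0.38 to 0.49, adjusted p = 0.883 from limma). SLC22A16, a carnitine carrier gene of testis, was dim in both lines.

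None of the 11 organic anion and urate carriers was called, where 25% of all probe sets were called. Of the 11, 6 were dim in both lines, and 5.46% of all dim probe sets were called. The log2 fold changes of the 11 carriers ran from -0.38 to 0.21 with a median of 0.02. The arrays of the lines overlapped for the kidney uptake carriers. SLC22A6, the gene of OAT1, had 6.59 ± 0.14 in KM12SM and 6.46 ± 0.28 in SW620 (SD, n = 3 each; log2 fold change 0.13, 95% interval -0.27 to 0.52, adjusted p = 0.696 from limma). SLC22A8, the gene of OAT3, had 5.71 ± 0.10 in KM12SM and 5.69 ± 0.06 in SW620 (SD, n = 3 each; log2 fold change 0.02, 95% interval -0.33 to 0.36, adjusted p = 0.959 from limma). SLC22A12, the gene of the urate reabsorption carrier URAT1, differed by -0.01. Of this subgroup, 8 genes lie on chromosome 11 and 0 of them were called, with 4 of them dim in both lines. SLC22A10 was the 1 anion carrier whose arrays did not overlap, with 3.51, 3.57 and 3.58 in KM12SM against 4.03, 3.73 and 3.74 in SW620, and it was dim in both lines (log2 fold change -0.28, adjusted p = 0.266 from limma).

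The remaining SLC22 members were SLC22A17, which encodes a lipocalin receptor, and the orphan carrier gene SLC22A23. SLC22A17 had 8.39, 7.90 and 8.35 in KM12SM, against 7.93, 7.76 and 8.38 in SW620, with overlap (log2 fold change 0.19, adjusted p = 0.57 from limma). SLC22A23 had 7.52, 7.58 and 7.69 in KM12SM, against 7.19, 6.95 and 7.27 in SW620, without overlap (log2 fold change 0.46, 95% interval 0.10 to 0.82, adjusted p = 0.0588 from limma). It was called without dim probe sets (adjusted p = 0.0453 from limma), without SW620 replicate 3 (0.0368), without replicate 3 of both lines (0.0464) and with array weights (0.0103). The other alternatives did not call SLC22A23.

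Of the 2 cation exporters, 1 was called lower in KM12SM, where 12.4% of all probe sets were called lower. SLC47A1, which encodes the proton-coupled exporter MATE1 for metformin and other cations, had log2 signals of 5.35, 5.51 and 5.73 in KM12SM, against 6.11, 6.27 and 6.48 in SW620. The KM12SM arrays were all below the SW620 arrays, with a log2 fold change of -0.76 (95% interval -1.14 to -0.38, standard error 0.18, adjusted p = 0.0046 from limma). The methods' t-test gave an adjusted p of 0.0533. SLC47A2, the kidney relative MATE2 and its neighbour on chromosome 17, had 5.48, 4.94 and 5.52 in KM12SM, against 5.31, 4.78 and 5.33 in SW620, with overlap (log2 fold change 0.17, 95% interval -0.27 to 0.61, adjusted p = 0.621 from limma).

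Among the 7 SLC10 members, SLC10A7 was called (14.3%, against 25% of all probe sets). It encodes a relative that is known for calcium handling and glycosaminoglycan synthesis and is not known as a bile acid carrier. Its log2 signals were 7.17, 7.29 and 6.98 in KM12SM, against 6.53, 6.57 and 6.34 in SW620. The KM12SM arrays were all above the SW620 arrays, by a modest log2 fold change of 0.67 (95% interval 0.31 to 1.03, standard error 0.17, adjusted p = 0.00803 from limma). The bile acid importers were not called. SLC10A1, the hepatocyte importer NTCP, had 5.05, 5.00 and 5.66 in KM12SM, against 4.91, 4.87 and 5.18 in SW620 (log2 fold change 0.25, 95% interval -0.17 to 0.67, adjusted p = 0.426 from limma). SLC10A2, the ileal importer ASBT, had 5.62 ± 0.14 in KM12SM and 5.67 ± 0.02 in SW620 (SD, n = 3 each; log2 fold change -0.05, 95% interval -0.40 to 0.30, adjusted p = 0.864 from limma). SLC10A6, a carrier of sulfated steroids, and the orphans SLC10A3, SLC10A4 and SLC10A5 had log2 fold changes of -0.14 to 0.39. SLC10A3 had the signals 8.11, 8.00 and 7.58 in KM12SM, against 7.82, 7.64 and 7.74 in SW620, with overlap.

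Neither subunit of the basolateral bile acid exporter was called, against 25% of all probe sets. SLC51A had log2 signals of 5.03, 5.11 and 5.29 in KM12SM, against 5.10, 5.11 and 5.42 in SW620 (log2 fold change -0.07, 95% interval -0.43 to 0.30, adjusted p = 0.837 from limma). SLC51B had 3.81, 3.73 and 4.05 in KM12SM, against 4.04, 4.22 and 4.40 in SW620 (log2 fold change -0.36, 95% interval -0.73 to 0.02, adjusted p = 0.165 from limma), and its signals were dim in both lines. Over all 35 uncalled members the log2 fold changes lay between -0.38 and 0.48, and their 95% intervals reached 0.34 to 0.50 to either side. Smaller differences could go uncalled at this precision. Some differences of about this size also went uncalled, such as the 0.48 of SLC22A4 (95% interval 0.10 to 0.86).

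Efflux pumps of the ABC family share substrates with these carriers. Of 8 measured pumps of the 10 listed, 3 were higher and 2 lower in KM12SM (62.5% called, against 25% of all probe sets and 30.7% of those not dim), with a median log2 fold change of -0.01. ABCG2, which exports urate, sulfate conjugates and drugs, had 9.19, 9.13 and 8.75 in KM12SM, against 4.24, 3.95 and 3.95 in SW620 (log2 fold change 4.98, adjusted p = 1.54e-11 from limma). ABCC3, a basolateral exporter of glucuronides, was higher by 1.57 (adjusted p = 2.06e-05 from limma). ABCC2, the apical exporter of conjugates that works in series with OATP1B carriers in hepatocytes, had 6.34, 6.55 and 6.20 in KM12SM, against 9.35, 9.45 and 8.77 in SW620 (log2 fold change -2.83, adjusted p = 2.4e-08 from limma). ABCB1, the P-glycoprotein gene, was lower by 0.73 (adjusted p = 0.0113 from limma).

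Of 12 measured regulators and scaffolds of transporters, 4 were higher and 2 lower (6 of 12 called, against 25% of all probe sets), with a median of 0.19. AHR, the xenobiotic sensor gene, had 12.87, 12.55 and 12.60 in KM12SM, against 10.14, 10.28 and 10.01 in SW620 (log2 fold change 2.53, adjusted p = 1.53e-08 from limma). VDR (0.66, adjusted p = 0.0129 from limma) and NFE2L2 (0.66, adjusted p = 0.0117 from limma), which encode the vitamin D receptor and the oxidative stress factor NRF2, were also higher, and PDZK1, the scaffold that holds several of these carriers at the apical membrane, was lower by 1.14 (adjusted p = 0.000394 from limma). Of 13 genes of bile acid synthesis, conjugation, binding and sensing, 0 were higher and 1 was lower (7.69% called, against 25%), with a median of -0.08. That gene was FGF19, the bile-acid-induced hormone of ileum, with 6.81, 7.16 and 6.96 in KM12SM, against 9.63, 9.74 and 9.51 in SW620 (log2 fold change -2.65, adjusted p = 8.23e-09 from limma). Of the 13 genes, 7 were dim in both lines, and 5.46% of all dim probe sets were called.

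Of 23 measured hepatocyte markers, 0 were called higher and 4 lower (17.4% called, against 25% of all probe sets), with a median of -0.08. Of the 23, 13 were dim in both lines, and 5.46% of all dim probe sets were called. ASGR1, the asialoglycoprotein receptor gene, had log2 signals of 6.35, 6.36 and 6.78 in KM12SM, against 6.01, 6.11 and 5.95 in SW620, without overlap, and missed the threshold (log2 fold change 0.47, adjusted p = 0.0635 from limma). The apolipoprotein gene APOB was dim in both lines, and differed by 0.38 on the log2 scale (adjusted p = 0.208 from limma). SERPINA1, the antitrypsin gene that other epithelia also express, was lower by 2.17 (adjusted p = 2.4e-07 from limma), and FGA, F2 and APOH were lower by 0.78, 0.63 and 0.61 (adjusted p from limma 0.0353, 0.0447 and 0.0113). The albumin gene ALB had log2 signals of 4.88, 4.94 and 4.94 in KM12SM, against 5.18, 5.25 and 5.04 in SW620, and was not called. Of 9 proximal tubule markers, the creatine synthesis gene GATM was higher (log2 fold change 5.04, adjusted p = 2.48e-11 from limma) and the other 8 were not called (11.1% called, against 25%). Of 11 colorectal epithelium markers, 7 were higher and 1 was lower (72.7% called, against 25% of all probe sets and 30.7% of those not dim), with a median of 0.94. The 4 with the largest folds were CDH17 (4.95), CEACAM5 (4.76), LGALS4 (4.07) and GPA33 (1.78), all higher in KM12SM, and VIL1 was the lower one (-0.81). Whether these differences in epithelial markers have a part in the transporter values was not tested.

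**Figure D4:**
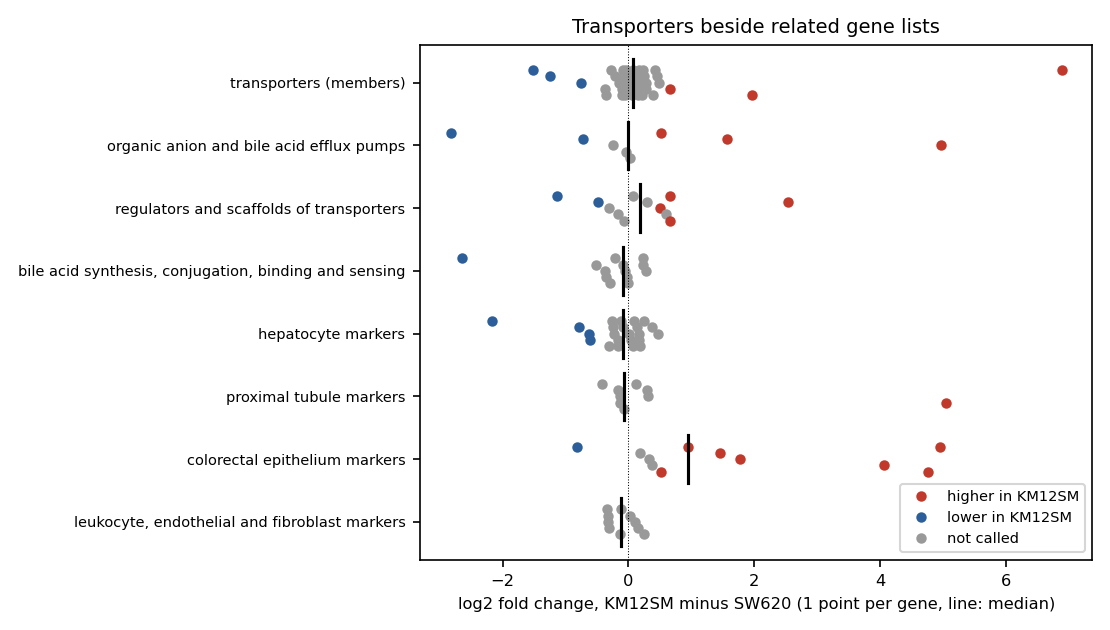
Log2 fold change (KM12SM minus SW620) of each gene in the transporter group and in 7 companion lists, 1 point per gene, with red for higher, blue for lower and grey for not called and a vertical line at the median of each list. The transporter median is 0.08, the hepatocyte marker median is -0.08 and the colorectal epithelium median is 0.94.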

How the data were processed

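The authors deposited log2 values for 6 Clariom S arrays, which they normalised and summarised per gene with RMA in Transcriptome Analysis Console (version not given in the sources used here). Every value column belonged to a labelled sample (0 columns not mapped), and detection calls were not used. RMA draws low signals together, so folds of dim genes can be understated.

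The lines were compared through lmFit and eBayes of limma 3.58.1 under R 4.3.3 (KM12SM minus SW620, Benjamini-Hochberg adjustment over 21448 probe sets, threshold 0.05), with no filter and no block, after the supplementary methods. The code was tested on simulated data. Spans and promoter windows are RefSeq's for GRCh38.p14, and the windows were aligned with Biopython 1.88. Arrays give no counts, and 3 arrays per line set the precision.

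Members and lists were chosen with earlier results of these data known. Genes were named by rule: called members, the SLCO1 cluster and its neighbours, classical carriers of each family, the member with the highest signal of each family (to choose names only, since signals do not rank genes), and up to 4 called members of each list. EPCAM, KRT8, ALB, ASGR1, APOB, VIL1, SLCO5A1, SLC22A10, SLC22A23 and the members named for dim signals, for motif matches or for their function were added after their values were seen. Alternatives were quantile normalization, median centring, dim probe sets left out, a block for the replicate number, eBayes with trend and robust options, array weights, the methods' t-test, a 2-fold limit and leaving out each array. Dropping both replicate 3 arrays was an alternative chosen after seeing the data.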

Additional observations from a re-analysis of the deposited data

How the results depend on the processing

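SLCO1B3, SLCO3A1 and SLC10A7 kept their calls and directions in all 14 alternatives that gave a value, and SLCO1B1 in 13 of 13, since it was removed with the dim probe sets. SLC22A15 and SLC47A1 kept theirs in 13 of 14 and lost them with the methods' t-test. The count of transporters higher in KM12SM was 9 with array weights, whose fit stopped before its convergence tolerance, and 3 to 6 when an array was left out, with 6 without SW620 replicate 3. It was also 6 without replicate 3 of both lines. The count of lower transporters was 6 with array weights and 1 with the methods' t-test, and 3 whichever array was left out. Array weights added SLCO4A1-AS1, SLCO5A1, SLC22A4, SLC22A5, SLC22A17 and SLC22A23 as higher and SLC22A10, SLC22A16 and SLC22A24 as lower. With a 2-fold limit the counts were 2 higher and 2 lower. Deviations of same-numbered arrays correlated at 0.06, 0.10 and 0.15, so the numbers are not shown to pair the samples. A replicate block gave 4 higher, with SLC22A4 added, and 3 lower. The sign of 13 values in 8 uncalled members, of 288 comparisons over 21 members, turned round: SLCO1C1 was -0.12 with array weights and -0.025 without replicate 3 of both lines, and SLC22A8 was -0.027 with median centring, -0.038 with array weights and -0.035 without replicate 3 of both lines. With single arrays left out, the log2 fold change ran from -0.17 to 0.25 for SLC22A2, -0.033 to 0.24 for SLC22A6, -0.028 to 0.072 for SLC22A8, -0.007 to 0.36 for SLC47A2, -0.10 to 0.027 for SLC10A2, -0.14 to 0.038 for SLC51A and -0.125 to 0.025 for SLCO4A1. The cause of these changes was not tested. Cross-hybridisation between SLCO1 relatives, transcript starts and protein were not measured, and dim signals carry little information on change.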
